A study of Mus musculus with 45 samples.

Results

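The regions described here are 1114 distal accessible sites of mouse embryonic stem cells (mESC) whose ATACseq level stayed close to the untreated level while SOX2, OCT4 or NANOG was depleted. They were selected on the readout itself. Counts per peak were scaled to counts-per-million (CPM) by the column total outside the mitochondrial genome, and replicates were averaged. A peak entered when its untreated mean was at least 4 CPM in all 3 lines, its summit lay more than 5 kb from every annotated transcription start site of GENCODE vM21, and all 9 ratios of the 2, 6 and 24 h means to the untreated mean of the same line lay between 0.8 and its inverse, 1/0.8. Of 184964 peaks, 21172 met the level and distance conditions, and the 1114 members are 5.26% of these. The 20058 distal peaks that met both conditions but left the ratio limits serve below as the other distal peaks. Because the ratios at 2, 6 and 24 h chose the members, these ratios are given as a description and carry no test.

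The labels give E14 mESC for the SOX2-FKBP and NANOG-FKBP lines, with IB10 mESC named in the methods for SOX2, and V6.5 mESC for the OCT4-FKBP line, so the parental line and the tagged factor cannot be told apart in comparisons between lines. Every group, the untreated ones included, carries the FKBP fusion of its factor, and the methods describe picked homozygous clones for the targeting of Sox2 and Nanog. Treated cells received 500 nM dTAG-13, a molecule that directs the FKBP fusion protein to the proteasome, and untreated (NT) cells received DMSO. SOX2-FKBP has 2 libraries each for NT and for 0.5, 1, 2, 6 and 24 h post depletion (hpd), OCT4-FKBP has 2 each for NT, 2, 6 and 24 hpd, and NANOG-FKBP has 2 for NT and 3 each for 2, 6 and 24 hpd. The labels do not say whether replicates are separate cultures. For SOX2 the methods speak of duplicates and of a further, independent clone, and which SOX2-FKBP libraries come from it is not given in the sources used here. In all lines p-values measure only the spread between these libraries, which may be technical.

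ATACseq records where the Tn5 transposase inserts into DNA, and the fragment count of a peak tells how open the site is. SOX2 and OCT4 are pioneer factors that bind a composite motif together and open chromatin at enhancers of pluripotency genes, and NANOG is a further factor of this network. Not every open distal site is an enhancer of this kind. CTCF, a zinc finger protein, binds a long motif of its own, phases the nucleosomes around it, halts cohesin and thereby anchors chromatin loops in most cell types. Genes transcribed by RNA polymerase III, such as those of transfer RNAs (tRNAs), form another kind of accessible site, as do active start sites that an annotation does not hold.

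The members are most easily seen in their sequence, and these windows show the feature that most often set them apart, a match to the core motif of CTCF within 100 bp of the summit. Each line gives the mm10 plus strand of the 100 bp around the summit (200 bp for the member in 4933407K13Rik, whose match is centred 79 bp from the summit), 5′ to 3′, with the letters of the match in capitals on whichever strand the motif lies. They are the member with a match that had the highest untreated level (Dlgap1 intron), the members nearest to Nanog, Prdm14 and Klf4, a member beside a peak that fell (near Nkx6-2) and members that differed between untreated lines (Btbd9 and 4933407K13Rik introns).
Dlgap1 intron, chr17:70738355-70738454: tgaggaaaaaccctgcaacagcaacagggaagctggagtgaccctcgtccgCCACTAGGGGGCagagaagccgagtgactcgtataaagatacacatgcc
Upstream of Nanog, chr6:122669543-122669642: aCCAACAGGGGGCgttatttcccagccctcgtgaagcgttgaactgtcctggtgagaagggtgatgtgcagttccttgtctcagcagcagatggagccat
Upstream of Prdm14, chr1:13134439-13134538: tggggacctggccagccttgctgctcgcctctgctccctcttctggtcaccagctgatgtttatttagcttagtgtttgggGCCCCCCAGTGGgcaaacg
Nearest to Klf4, chr4:55451168-55451267: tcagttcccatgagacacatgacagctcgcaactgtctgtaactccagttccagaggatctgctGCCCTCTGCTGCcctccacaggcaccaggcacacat
Near Nkx6-2, chr7:139590453-139590552: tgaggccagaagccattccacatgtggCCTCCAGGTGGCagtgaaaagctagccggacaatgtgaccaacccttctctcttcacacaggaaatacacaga
Btbd9 intron, chr17:30559650-30559749: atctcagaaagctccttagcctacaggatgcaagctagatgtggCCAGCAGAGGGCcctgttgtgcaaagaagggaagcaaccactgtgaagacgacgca
4933407K13Rik intron, chrX:75744596-75744795: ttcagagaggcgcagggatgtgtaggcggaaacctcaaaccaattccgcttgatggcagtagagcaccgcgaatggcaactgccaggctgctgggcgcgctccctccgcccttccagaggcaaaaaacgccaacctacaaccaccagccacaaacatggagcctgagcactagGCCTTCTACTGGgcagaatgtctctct

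The next windows show members of other kinds. The first, near Nsd1, had the highest untreated level of all members and holds no CTCF core match. The second lies at a tRNA gene on chromosome 1, with the letters of a B box, the internal promoter element of tRNA genes, in capitals.
Near Nsd1, chr13:55190243-55190342: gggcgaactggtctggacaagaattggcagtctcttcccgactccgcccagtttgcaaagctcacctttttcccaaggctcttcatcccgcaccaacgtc
At n-TGtcc3, chr1:171102797-171102896: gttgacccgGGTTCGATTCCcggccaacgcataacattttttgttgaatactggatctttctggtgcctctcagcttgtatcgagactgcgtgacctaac

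Libraries held between 1817191 and 17575631 counts in peaks (median 9496229), and the median count of a member in a library lay between 13 and 166.5. Between 1.42% and 6.65% of counts were mitochondrial, except in the treated NANOG-FKBP replicate 2 libraries, where the share was at least 13.2% and the totals were 1817191 to 3272168. Chromosome 8 held 5.30 to 5.46% of the counts in SOX2-FKBP libraries, 7.66 to 7.94% in OCT4-FKBP libraries and 5.73 to 7.39% in NANOG-FKBP libraries. No gene expression was measured in these libraries, so no marker of the cell type could be read.

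The limits of the rule left few distal peaks inside in every line. At all 3 times 5659 of the eligible distal peaks (26.7%) were inside in SOX2-FKBP, 3752 (17.7%) in OCT4-FKBP and 8043 (38.0%) in NANOG-FKBP. Both pioneer lines together kept 1888 (8.92%). The single ratio that kept the fewest was OCT4-FKBP at 24 hpd, with 29.7% of eligible distal peaks inside and a median ratio of 0.722, and the one that kept the most was NANOG-FKBP at 6 hpd, with 64.8%. Peaks within 5 kb of a start stayed inside all 9 limits in 2407 of 27188 cases, or 8.85%. The share of members hardly followed the level of the peak. It was 4.73% of the eligible distal peaks at 4 to 6 CPM, 5.77% at 12 to 20 CPM and 4.83% at 20 CPM and above.

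The untreated level of members spanned 4.25 to 69.5 CPM as a mean of the 3 lines, with a median of 9.19 CPM. Medians by line were 8.66 CPM in SOX2-FKBP, 9.70 CPM in OCT4-FKBP and 8.96 CPM in NANOG-FKBP. The rule was applied to means, and single libraries strayed from it: the typical member had 17 of its 21 treated libraries at 2, 6 and 24 hpd inside the limits, and 29 members had all of them inside. The plot of levels by library shows this spread. The 3 members closest to a limit from inside lay at chr3:96503236-96503530, chr2:53128183-53130890 and chr7:127183967-127184386, and the largest of their 9 absolute log2 ratios were 0.3218, 0.3217 and 0.3215. The 3 peaks just outside, at chr2:34644346-34645211, chr7:27725325-27726304 and chr8:18916414-18919240, had 0.3219, 0.3220 and 0.3221, so peaks on either side of the limit hardly differ. Leaving out OCT4-FKBP replicate 2 or NANOG-FKBP replicate 1 from the means left 692 and 608 members.

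**Figure D1:**
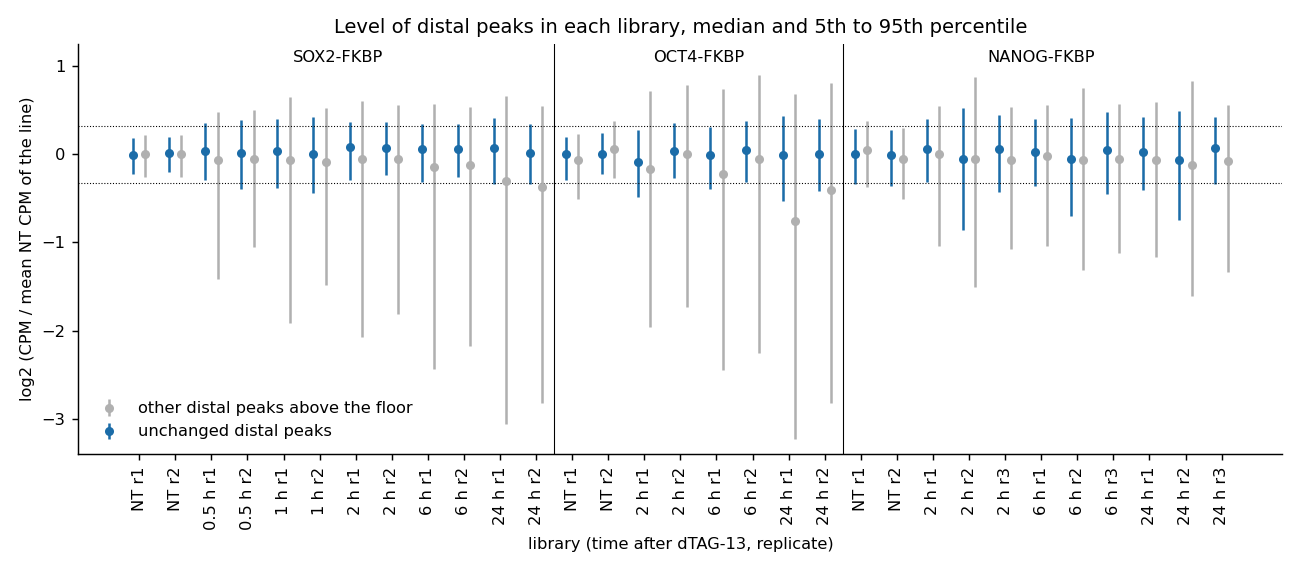
Log2 ratio of each library's CPM to the mean NT CPM of its line (y axis) for every library of the 3 lines (x axis), as the median (point) and the 5th to 95th percentile (bar) over the 1114 unchanged distal peaks (blue) and the 20058 other distal peaks above the floor (grey). The blue medians stay near 0 in all libraries. The grey bars reach well below 0 in the treated libraries of all 3 lines, and furthest in SOX2-FKBP and OCT4-FKBP at 24 h. The 2, 6 and 24 h libraries were used to choose the members.

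The same 9 contrasts in edgeR's quasi-likelihood test called none of the members at an adjusted p below 0.05, and 3 members had an unadjusted p below 0.05, all at 24 hpd of OCT4. DESeq2's Wald test called 1 member, also at 24 hpd of OCT4, where it called 19.8% of all peaks tested. Over all peaks tested, edgeR called 5.64% at 2 hpd, 8.01% at 6 hpd and 15.7% at 24 hpd of SOX2. For OCT4 the shares were 7.01%, 12.1% and 23.5%, and for NANOG they were 0.954%, 1.12% and 2.54%. A fit with the replicate number as a block called 9 members, all at 24 hpd of OCT4, where it called 31% of all peaks tested. These counts follow from the selection and nothing is read from them.

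The libraries at 0.5 and 1 h of SOX2 depletion took no part in the rule, and there most members stayed inside the limits while many other distal sites had already fallen. At 0.5 hpd the ratio to NT lay inside these limits in 1054 members (94.6%), below it in 22 and above it in 38, and it spanned 0.661 to 1.52. Among the other distal peaks 61.7% were inside. At 1 hpd 1016 members (91.2%) were inside, with 49 below and 49 above and a span of 0.582 to 1.47, against 53.6% of the others. These ratios share their NT libraries with the ratios that chose the members. The ratio of 1 h to 0.5 h shares no library with them, and 1006 members (90.3%) were inside the limits there, against 79.0% of the others.

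Distal peaks at 0.5 or less of NT at 2 hpd of SOX2 or OCT4, which were chosen by a later time of the same course, give the opposite picture. Of these 4351 peaks 15.5% were inside the limits at 0.5 hpd and 9.45% at 1 hpd. The early behaviour of the members also held within single libraries. Against the NT mean, 89.0% and 82.8% of members were inside in the 0.5 h replicates and 81.9% and 80.3% in the 1 h replicates, while the other distal peaks had 56.3%, 58.7%, 45.3% and 52.0%. The share of members was lowest at low levels. At 0.5 hpd it was 89.6% of the members at 4 to 6 CPM, 99.2% at 12 to 20 CPM and 97.2% at 20 CPM and above, and at 1 hpd it was 80.8%, 95.9% and 97.2%. In the other distal peaks the same shares were 65.1%, 58.9% and 62.0% at 0.5 hpd and 58.9%, 48.2% and 50% at 1 hpd. The replicates of a member differed by a median of 0.178 on the log2 scale at 0.5 hpd and 0.231 at 1 hpd, and those of the other distal peaks by 0.216 and 0.280.

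In edgeR's quasi-likelihood test no member was called at 0.5 hpd, where the test called 3.3% of all peaks tested and 2565 of the other distal peaks (12.8%). At 1 hpd it again called no member, against 6.35% of all peaks and 4242 of the other distal peaks (21.2%). Between 1 h and 0.5 h it called 0% of all peaks and so can separate no groups of peaks. The 2 comparisons with NT share the NT libraries with the rule. The fit also held the 2, 6 and 24 h libraries that chose the members, so these tests are not independent of the selection. Unadjusted p-values below 0.05 were found in 6, 18 and 19 members in these comparisons. DESeq2's Wald test called 0 members in each of them, against 0.921%, 2.80% and 0% of all peaks tested. A fit with the replicate number as a block called 5 members at 1 hpd, 1 higher and 4 lower, against 9.72% of all peaks in that fit. Without the block, leaving out 1 h replicate 2 gave 2 members, both lower. The lowest adjusted p of a member was 0.230 at 0.5 hpd, 0.0599 at 1 hpd and above 0.99 between the times. Fitted log2 fold changes of members had a median of -0.03 at 0.5 hpd, within -0.73 to 0.51, and of -0.02 at 1 hpd, within -0.83 to 0.55. Between 0.5 h and 1 h the median was 0.01, within -0.79 to 0.63. For a single member the median standard error was 0.22 at either time, so a change of that size in one site was not detectable at this depth. The largest of these fitted changes were not called either.

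**Figure D2:**
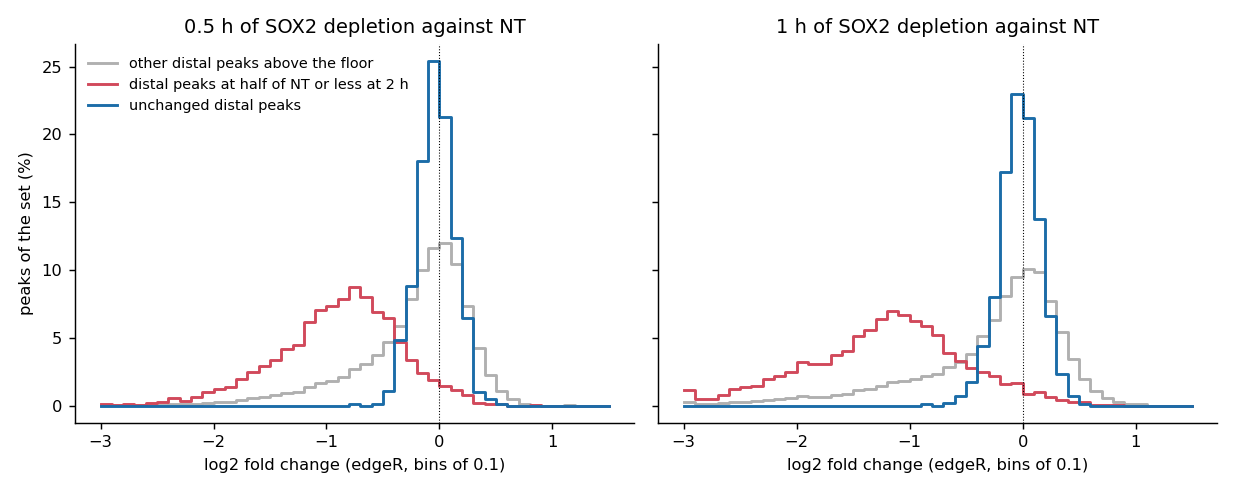
Distribution of the edgeR log2 fold change (x axis, bins of 0.1, with values beyond the axis counted in the end bins) at 0.5 h and at 1 h of SOX2 depletion against NT, as the percent of each set of peaks (y axis), for unchanged distal peaks, other distal peaks above the floor and distal peaks at 0.5 of NT or less at 2 h. Members form a narrow peak around 0, within -0.73 to 0.51 at 0.5 h, and peaks chosen for their loss at 2 h lie mostly below 0 at both times.

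A missing call does not show that a site is constant, so the reverse question was put with DESeq2's test against a threshold: is the log2 fold change smaller than 1 in size. At 0.5 hpd 1079 members (96.9%) passed, while 38.9% of all peaks tested and 71.1% of the other distal peaks did. At 1 hpd 1055 members (94.7%) passed, against 35.2% of all peaks and 64.5% of the others, and between 1 h and 0.5 h 1060 members (95.2%) passed, against 44.1% and 83.2%. In all 3 comparisons together 1007 members (90.4%) and 12006 of the other distal peaks (59.9%) passed. Between 1 h and 0.5 h the number passing was 680 without 0.5 h replicate 1. The members that did not pass were mostly low: at 0.5 hpd their median NT level was 5.53 CPM, and that of the passing members was 9.36 CPM. The median 95% half-width for a member was 0.557 on the log2 scale, and a narrower threshold of 0.5 was passed by 80 members at 0.5 hpd and 60 at 1 hpd. Only 185 and 132 members were given an adjusted p against 0.5, so most members were not judged there. At this depth most members are thus bounded within a log2 fold change of 1, and few were shown to lie within 0.5.

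The core of the CTCF motif, searched with 1 mismatch allowed on both strands of the 200 bp around the summit, was present in 484 of the 1106 members on assembled chromosomes. The other 8 members lie on unplaced contigs, for which no sequence was read. This is 43.8% (95% Wilson interval 40.9 to 46.7%, for counting error only), against 16.3% of the other distal peaks, 3.82% of distal peaks at 0.5 of NT or less at 2 hpd and 13.7% of all peaks. Unchanged peaks within 5 kb of a start held a match in 21.2% of cases. Read the other way, 12.9% of eligible distal peaks with a match were members, and 3.58% of those without. The relation was present in each of 3 equal groups of GC content, with 10.6% against 1.63% in the lowest, 15.2% against 3.50% in the middle and 12.5% against 5.89% in the highest. Binding of CTCF itself was not analysed here.

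The match was central to the open site in members and in the other distal peaks alike. In members its centre lay a median of 17 bp from the summit, and in 341 of 484 (70.5%) it lay within 25 bp, as in the windows of Btbd9 and Dlgap1. In the other distal peaks with a match the median was 18 bp, and 66.1% were within 25 bp. The motif stood on the plus strand alone in 222 members, on the minus strand alone in 242 and on both in 20. Members with a match had a median untreated level of 8.24 CPM, and those without had 10.1 CPM. The share with a match fell with the level, from 55.5% at 4 to 6 CPM through 51.8%, 46.1% and 36.5% to 14% at 20 CPM and above, and the other distal peaks fell from 26.7% to 7.84%. Among the 10 members with the highest level only that in Dlgap1 held one.

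**Figure D3:**
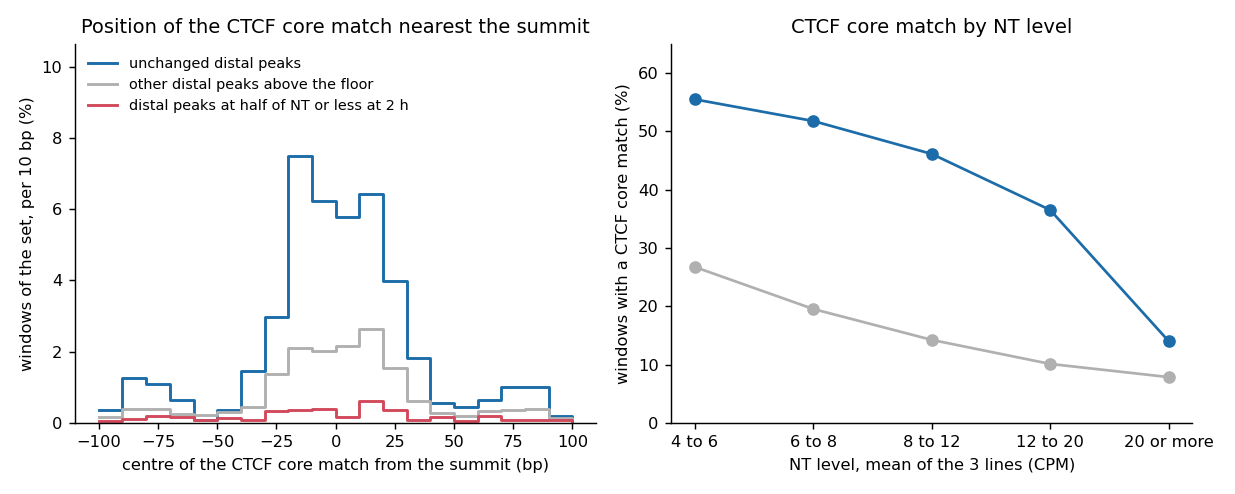
Left, percent of summit windows (y axis) whose nearest CTCF core match has its centre in each 10 bp bin from the summit (x axis), for members, other distal peaks and distal peaks at 0.5 of NT or less at 2 h. Right, percent of windows with a match (y axis) by NT level in CPM (x axis); members lie above the other distal peaks at each level, and both fall from the lowest to the highest level (55.5% to 14% and 26.7% to 7.84%).

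Eligible distal peaks with a CTCF core match stayed inside the limits more often in each line taken alone, which is a description of the ratios that chose the members. Inside at all times were 46.4% of those with a match and 22.5% of those without in SOX2-FKBP, 37.1% and 13.5% in OCT4-FKBP, and 51.8% and 34.9% in NANOG-FKBP. The line with the fewest losses thus showed the smallest gap. At 0.5 hpd, outside the rule, 462 of the 484 members with a match (95.5%) and 585 of the 622 without (94.1%) were inside the limits, so the kinds of member did not part at the early times. At 1 hpd the shares were 90.5% and 91.6%.

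SOX and OCT4 motifs were rarer in members than in the other distal peaks, and no NANOG motif was searched. CATTGT, a SOX site, was held by 7.60% of members, 13.1% of the others and 10.4% of all peaks. ATGCNAAT, the octamer bound by OCT4, was held by 2.08% of members, 6.01% of the others and 3.69% of all peaks. TTGTNATGC, which joins both sites, overlaps the SOX letters and part of the octamer, and it was held by 3 members (0.271%), 2.29% of the others, 7.89% of distal peaks at 0.5 of NT or less at 2 hpd and 0.939% of all peaks. AAGGTCA, the site of the nuclear receptor ESRRB, was held by 3.8% of members, 9.77% of the others and 8.17% of all peaks. GGGNGTGG, bound by KLF factors, was held by 10.1%, 16.3% and 13.1%, and GGAATG, bound by TEAD factors, by 10.9%, 15.8% and 13.5%. All were searched on both strands of the same 200 bp windows with no mismatch, among 18 motifs in all. Such short patterns also match by composition, so a match is a description of the letters and not of a bound factor.

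Not every motif was rarer. CCAAT, bound by NFY, was held by 21.9% of members, 22.1% of the others and 22.4% of all peaks. The E-box CACGTG, bound by basic helix-loop-helix factors such as USF and MYC, was held by 5.61%, 3.96% and 4.59%. TGCCGC, bound by ZFP57, was held by 6.87%, 4.48% and 5.29%. Of 1085 words of 8 letters that at least 2% of members held, AGGGCGCC was the most over-represented, in 2.89% of members and 0.839% of the others, before ACCACTAG with 3.44% and 1.01% and AGGTGGCG with 5.61% and 1.66%. All 3 resemble stretches of the CTCF motif. At the other end stood CAAGGTCA, which holds the ESRRB letters, in 2.08% of members and 5.39% of the others, and the KLF-like words GCCACACC and CCACACCC.

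**Figure D4:**
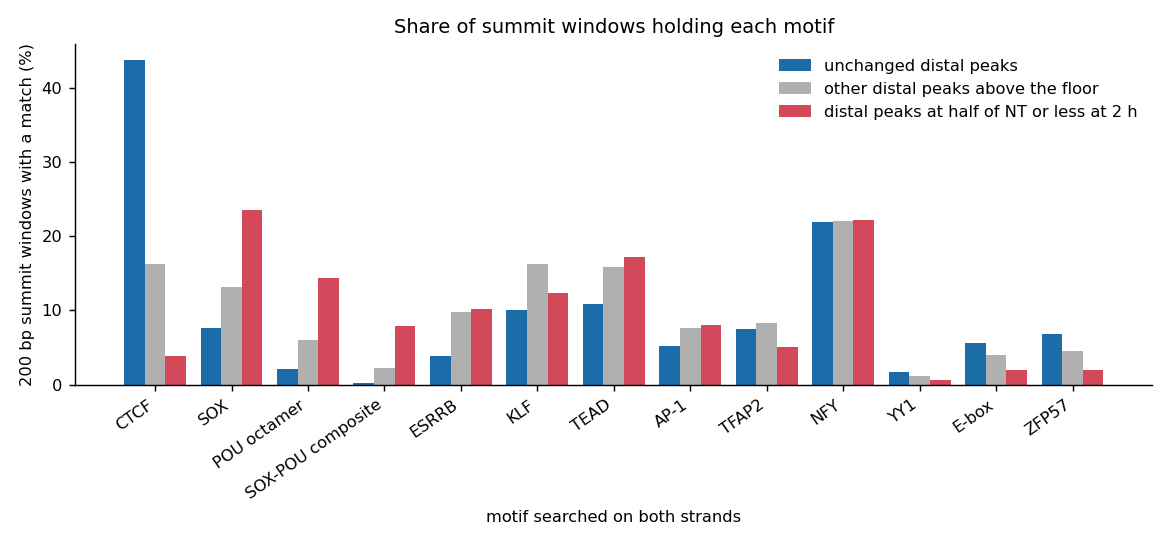
Percent of 200 bp summit windows (y axis) that hold each motif on either strand (x axis), for unchanged distal peaks, other distal peaks above the floor and distal peaks at 0.5 of NT or less at 2 h. CTCF stands apart at 43.8% of members against 16.3% of other distal peaks, and the SOX, POU, ESRRB, KLF and TEAD motifs are rarer in members than in other distal peaks.

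The 622 members without a CTCF match in the 200 bp window were looked at again after these values were seen. Over the whole peak 654 of the 1106 members hold a match, so some of the 622 hold one outside the window. CATTGT remained rarer in the 622, at 6.75% against 14.1% of the other distal peaks without a match, and so did AAGGTCA, at 4.34% against 10.7%. CACGTG was held by 7.24% against 3.94%, and AAGATGGC, the site of YY1, by 2.41% against 0.912%; over all members and all other distal peaks the YY1 shares were 1.72% and 1.13%, and over all peaks 1.86%. The word most over-represented among them was ACACGGGG, in 2.25% of these members and 0.352% of the others, followed by CGTGTGGC with 2.25% and 0.376%. AGGTGGCG, named above among the words that resemble the CTCF motif, was still held by 2.25% and 0.626%. These members also had more CpG-rich sequence. The observed over expected CpG ratio was at least 0.6 in 21.7% of them, in 7.02% of members with a match and in 5.58% of the other distal peaks.

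The 3 members with the joined SOX and OCT4 letters were also singled out after their values were seen. They lie in introns of Pced1b (chr15:97326945-97328101), Prkcz (chr4:155320490-155321087) and Etv6 (chr6:134222146-134223103), and the first 2 also hold a CTCF match. The Prkcz site had 8.08 and 9.05 CPM in the NT libraries of SOX2-FKBP, 7.09 and 7.49 CPM at 0.5 hpd and 4.67 and 7.85 CPM at 1 hpd. All 4 early libraries lay below both NT libraries, the log2 fold change at 1 hpd was -0.55 and the adjusted p from edgeR was 0.197. At 2 hpd it had 7.77 and 7.70 CPM. The Pced1b site had 8.08 and 7.30 CPM in NT, 9.48 and 8.77 CPM at 0.5 hpd and 8.89 and 7.67 CPM at 1 hpd. The Etv6 site had 14.3 and 12.9 CPM in NT, 12.3 and 14.6 CPM at 0.5 hpd and 12.2 and 15.5 CPM at 1 hpd, and its groups overlapped.

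A small group of members lay at tRNA genes. RefSeq, read after the first values were seen, gives tRNA starts that the GENCODE start sites used by the rule do not hold, and 25 of the 1106 members (2.26%) had such a start within 500 bp of the summit. The share was 0.310% of the other distal peaks, 0.105% of all peaks and 0.0460%, or 2 peaks, of distal peaks at 0.5 of NT or less at 2 hpd. Of the 87 eligible distal peaks at a tRNA start 28.7% were members, against 5.14% of the 21047 without one. Of these members 13 lie on chromosome 13 and 24 hold no CTCF match. A B box consensus was found in the windows of 9 of them, on either strand, and it was held by 1.63% of all members, 0.799% of the other distal peaks and 0.803% of all peaks. tRNA genes have near-identical copies, and alignments of low mapping quality were removed, so levels at these sites are uncertain.

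Members at tRNA starts were strong, with a median untreated level of 18.9 CPM. All peaks at tRNA starts had a median of 18.4 CPM. The ratio to NT of these members lay between 0.935 and 1.23 at 0.5 hpd (median 1.09). At 1 hpd it lay between 0.884 and 1.16 (median 1.00). None of the 25 left the limits at the early times. Of all members at 12 to 20 CPM, 99.2% were inside at 0.5 hpd and 95.9% at 1 hpd. At 20 CPM and above 97.2% were inside at either time, so staying inside was common to members of like level. The strongest member at a tRNA start, at chr19:12009481-12012546, has its summit 83 bp from n-TVtac1. In SOX2-FKBP it had 54.7 and 55.7 CPM in NT, 61.9 and 61.4 CPM at 0.5 hpd and 56.4 and 61.0 CPM at 1 hpd, all above the NT values. In OCT4-FKBP it had 66.3 and 65.2 CPM in NT and 73.2 and 59.0 CPM at 2 hpd, and in NANOG-FKBP 51.1 and 63.2 CPM in NT and 58.1 to 65.6 CPM at 2 hpd. The site whose window with a B box is printed above, chr1:171101760-171103713, lies 91 bp from n-TGtcc3 and had 50.3 and 48.2 CPM in NT, 50.5 and 44.9 CPM at 0.5 hpd and 45.7 and 41.4 CPM at 1 hpd in SOX2-FKBP. Both 1 h libraries lay below both NT libraries, as did 0.5 h replicate 2, and edgeR called neither time. RefSeq starts of any kind lay within 500 bp of 60 members (5.42%) and of 2.67% of the other distal peaks, 35 of the 60 being of another kind than tRNA, so that some members are distal by GENCODE and not by RefSeq.

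In shape and place members resembled other distal peaks. The median width was 1032.5 bp against 1129 bp, and the median fold enrichment that MACS2 gave for the merged libraries was 8.04 against 6.84. GC content of the 200 bp windows had a median of 53.5%, against 52% in the other distal peaks and 47% in peaks at 0.5 of NT or less at 2 hpd. Members lay a median of 11898 bp from the nearest start, and the others 14274.5 bp. Summits lay in intergenic sequence in 48.2% of members and 48.1% of the others, in introns in 42.9% and 46.8% and in exons in 8.89% and 5.16%. Members were found near each other somewhat more often than others were found near a member: 71 members (6.37%) had another member within 10 kb, and 704 of the other distal peaks (3.51%) had a member within that distance.

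Few members, and few of the other distal peaks, lay beside sites that fell strongly. Of peaks above the floor, 1668 were at 0.25 or less of NT at 2 hpd of SOX2 or OCT4. Of the members 8 (0.718%) had one within 5 kb, as did 1.24% of the other distal peaks. Within 50 kb the shares were close, at 8.53% and 9.16%. Median distances were 479276 bp for members and 506406 bp for the others. The closest pair lay near Nkx6-2, a homeobox gene of the ventral neural tube. The member at chr7:139590192-139590922, whose CTCF match is printed above, had 9.34 and 9.20 CPM in NT, 9.17 and 11.7 CPM at 0.5 hpd, 9.69 and 7.14 CPM at 1 hpd and 9.63 and 9 CPM at 2 hpd in SOX2-FKBP. The fallen peak at chr7:139591340-139591976, 1035 bp away from summit to summit and without a match, had 6.62 and 6.98 CPM in NT, 2.08 and 3.84 CPM at 0.5 hpd, 1.94 and 1.78 CPM at 1 hpd and 1.31 and 1.80 CPM at 2 hpd. Every treated library of the fallen peak was below its NT libraries, while those of the member overlapped NT. Other pairs were near Nlrp4f (chr13:65175680-65176951, 2095 bp), in Fermt2 (chr14:45506735-45507923, 3045 bp) and near Klhl8 (chr5:103927503-103928252, 4368 bp). At 1 hpd these 3 members had ratios to NT of 0.977 to 1.06, and their fallen neighbours had 0.115 to 0.242.

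Of 36 genes listed for their roles in pluripotency, early lineages, imprinting and insulation, 13 had a member within 100 kb of a start. No member lay that close to Sox2, Pou5f1 (which encodes OCT4), Klf2, Klf5, Esrrb, Tfcp2l1 or Tbx3, which encode factors of the pluripotency network, where 4 to 24 eligible distal peaks lay within 100 kb of each. Members were 2 of 16 such peaks at Nanog, 3 of 14 at Sall4, 1 of 5 at Klf4 and 1 of 11 at Prdm14. With 5.26% of all eligible distal peaks being members, these numbers are too small to set single genes apart. Nanog and Dppa3, a maternal factor gene beside it, shared the member at chr6:122669254-122670608. It lies in intergenic sequence 37896 bp upstream of Nanog, with a CTCF match. In SOX2-FKBP it had 14 and 16 CPM in NT, 15.2 and 16.3 CPM at 0.5 hpd, 13.9 and 16.6 CPM at 1 hpd, 15.2 and 17.2 CPM at 2 hpd, 12.6 and 12.8 CPM at 6 hpd and 14.2 and 13.2 CPM at 24 hpd. The NT libraries overlapped those at 0.5, 1, 2 and 24 hpd and lay above those at 6 hpd. In NANOG-FKBP it had 14.8 and 13.8 CPM in NT and 14.6 to 16.9 CPM at 2 hpd, and in OCT4-FKBP 22.6 and 26.8 CPM in NT and 21.7 and 22.8 CPM at 2 hpd. Its untreated level in OCT4-FKBP was higher than in SOX2-FKBP by 0.84 on the log2 scale (adjusted p = 0.00201 from edgeR). All peaks tested on chromosome 6, where this site lies, had a median log2 difference of 0.46 in the same comparison, and members there 0.67.

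Other genes of the list had members at a range of levels. Prdm14, a repressor of differentiation, had its member 7326 bp upstream at chr1:13133834-13134772, with a CTCF match. That site had 7.49 and 9.05 CPM in NT of SOX2-FKBP, 7.40 and 6.21 CPM at 0.5 hpd and 5.70 and 6.78 CPM at 1 hpd, so all 4 early libraries lay below NT with ratios of 0.823 and 0.755, and edgeR called neither. At 2 hpd it had 6.89 and 8 CPM. Klf4 had its nearest member 80552 bp away, with a CTCF match, at 4.18 and 5.40 CPM in NT, 4.27 and 5.66 CPM at 0.5 hpd and 4.33 and 5.89 CPM at 1 hpd. Cdx2, a trophectoderm regulator, had one 7918 bp away at chr5:147299060-147300203 without a match, with 15.5 and 12.1 CPM in NT of SOX2-FKBP, 34.2 and 27.9 CPM in NT of OCT4-FKBP and 16.7 and 19 CPM in NT of NANOG-FKBP. The OCT4-FKBP libraries stood above the others (log2 difference to SOX2-FKBP 1.27, adjusted p = 0.000157 from edgeR). Utf1, Sall4, Dnmt3b, Hoxa9, Hoxb4, Ctcf and the pair of X inactivation genes Xist and Tsix, which shared the member at chrX:103404668-103405768, had members without a match.

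The strongest member lay 19489 bp from the start of Nsd1, a histone methyltransferase gene, at chr13:55189582-55190940 in intergenic sequence. It had 64.3 and 58.4 CPM in NT, 61.8 and 60.1 CPM at 0.5 hpd and 77.5 and 55.3 CPM at 1 hpd in SOX2-FKBP, 81.0 and 66.5 CPM in NT of OCT4-FKBP and 74.7 and 72.4 CPM in NT of NANOG-FKBP. Its replicates at 1 hpd lay on either side of NT. The other 9 of the strongest 10 had a mean untreated level of 47.5 to 63.4 CPM and lay in an exon of St3gal2, in introns of Ccnd3, Dlgap1 and Foxk1 and in intergenic sequence, 2 of them at the tRNA genes above. The Dlgap1 site (chr17:70737091-70739073) had 43.9 and 46.5 CPM in NT, 48.6 and 51.3 CPM at 0.5 hpd and 48.3 and 45.1 CPM at 1 hpd in SOX2-FKBP. Over the 10 sites the ratio to NT was 0.969 to 1.12 at 0.5 hpd and 0.884 to 1.14 at 1 hpd.

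Members that kept their level within a line were not equal between lines. The rule used the untreated libraries for the floor of 4 CPM and as the denominator of each line's own ratios. The fit held the same 27 libraries that chose the members, so these tests are not independent of the selection. Untreated OCT4-FKBP cells differed from untreated SOX2-FKBP cells at 193 members (17.3%), 162 higher and 31 lower, while edgeR called 27.2% of all peaks tested and 24.6% of the other distal peaks. The share of members called was below the background here and in the 2 comparisons below. Because the selection shares these libraries, nothing is read from that gap. Leaving out SOX2-FKBP replicate 1, SOX2-FKBP replicate 2 or OCT4-FKBP replicate 1 left 65, 106 and 98 calls. The median log2 difference was 0.25 in members, 0.09 in the other distal peaks and 0.03 in all peaks tested. With total counts in place of TMM the median of members was 0.11 and the split was 94 higher and 48 lower. Untreated NANOG-FKBP against SOX2-FKBP gave 23 members (2.06%), 19 higher and 4 lower, against 7.02% of all peaks and 6.37% of the other distal peaks. With total counts the split was 8 higher and 5 lower, and without NANOG-FKBP replicate 2, SOX2-FKBP replicate 1 or SOX2-FKBP replicate 2 there were 1, 1 and 8 calls. Untreated NANOG-FKBP against OCT4-FKBP gave 41 members (3.68%), 9 higher and 32 lower, against 9.15% of all peaks and 10.9% of the others. Leaving out NANOG-FKBP replicate 1 or 2 or OCT4-FKBP replicate 1 or 2 left 18, 24, 22 and 27 calls.

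Chromosomes 6 and 8 gave the most members called higher in OCT4-FKBP. On chromosome 6, 40 of 73 members were called higher than in SOX2-FKBP, with a median log2 difference of 0.67, and 29.3% of all peaks tested and 35.1% of the other distal peaks there were called higher. On chromosome 8 the count was 34 of 64, with a median of 0.69, against 34.8% of all peaks and 40.6% of the other distal peaks. All peaks tested on these chromosomes had medians of 0.46 and 0.62. With an offset for each chromosome, an alternative chosen after seeing the data, 171 members were called, 142 higher and 29 lower, and the median of members was 0.26. In NANOG-FKBP against SOX2-FKBP the 64 members on chromosome 8 had a median of 0.37, with 6 called higher, against 7.45% of all peaks there. In NANOG-FKBP against OCT4-FKBP the 73 members on chromosome 6 had a median of -0.57 and gave 19 of the 32 lower calls, against 16% of all peaks there called lower. The number of copies of these chromosomes was not tested.

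**Figure D5:**
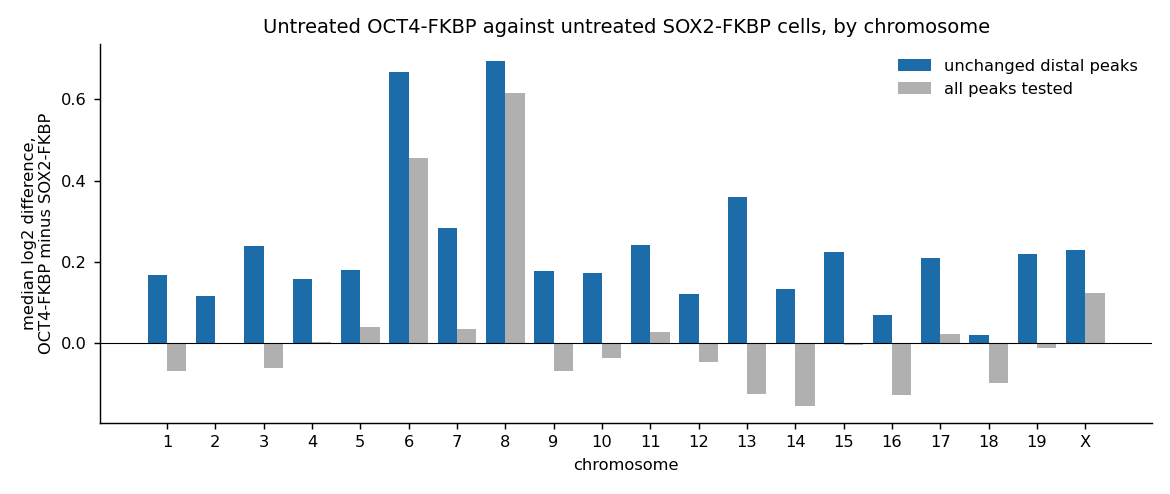
Median log2 difference of untreated OCT4-FKBP minus untreated SOX2-FKBP cells (y axis) on each chromosome (x axis), for the unchanged distal peaks and for all peaks tested. Chromosomes 6 and 8 stand above the rest in both sets, at 0.67 and 0.69 for members and 0.46 and 0.62 for all peaks.

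Single members differed by more. The intronic site in 4933407K13Rik at chrX:75744324-75745026, the member with the highest MACS2 fold enrichment (27.3), had 20.7 and 26.8 CPM in untreated SOX2-FKBP, 6.22 and 6.63 CPM in untreated OCT4-FKBP and 28.1 and 31.7 CPM in untreated NANOG-FKBP. The OCT4-FKBP libraries lay far below all others, with a log2 difference of -1.76 to SOX2-FKBP (SE 0.25, adjusted p = 1.71e-06 from edgeR) and of 2.2 for NANOG-FKBP against OCT4-FKBP (adjusted p = 1.07e-07). Within each line it hardly moved: at 2 hpd it had 26.3 and 22.1 CPM in SOX2-FKBP, 6.47 and 6.00 CPM in OCT4-FKBP and 26.1, 34.7 and 29.3 CPM in NANOG-FKBP. The largest of its 9 absolute log2 ratios was 0.0755. The intronic site in Btbd9 at chr17:30559273-30560248, with its CTCF match centred on the summit, followed the same order, with 13.1 and 14.1 CPM, 5.22 and 4.54 CPM and 13.9 and 10.3 CPM in the untreated SOX2-FKBP, OCT4-FKBP and NANOG-FKBP libraries (NANOG-FKBP against OCT4-FKBP 1.30, adjusted p = 0.000447). Both sites are lower in OCT4-FKBP than in either other line.

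Higher in OCT4-FKBP than in SOX2-FKBP were 3 named members of chromosome 8. The exonic site in Zfhx3 at chr8:108946191-108948885 had 4.09 and 5.24 CPM in SOX2-FKBP, 13.8 and 15.7 CPM in OCT4-FKBP and 7.45 and 13.8 CPM in NANOG-FKBP (log2 difference to SOX2-FKBP 1.80, SE 0.28, adjusted p = 8.95e-06). NANOG-FKBP was also called above SOX2-FKBP there, at 1.29, and the call was lost without NANOG-FKBP replicate 2 (adjusted p = 0.286) and without SOX2-FKBP replicate 1 (adjusted p = 0.151). The intronic site in Stox2 at chr8:47267827-47269200 had 6.33 and 7.14 CPM in SOX2-FKBP and 18.7 and 19.9 CPM in OCT4-FKBP (1.64), and the one in Gm26843 at chr8:93661574-93662391 had 6.13 and 4.76 CPM and 13.9 and 16.5 CPM (1.57). Groups did not overlap at these sites. An intronic site in Ndrg4 on the same chromosome, at chr8:95696639-95697765 and with a CTCF match, had 8.47 and 8.57 CPM in SOX2-FKBP and 16.9 and 20.3 CPM in NANOG-FKBP (1.22). That call too was lost without NANOG-FKBP replicate 2 (adjusted p = 0.0557 from edgeR) and without SOX2-FKBP replicate 1 (0.0577).

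Lower in OCT4-FKBP, besides the site in 4933407K13Rik, were intronic sites in Ascc1 and Rfc1. Rfc1 encodes the large subunit of replication factor C. Its site at chr5:65321915-65322952 had 12.7 and 14.1 CPM in SOX2-FKBP, 4.98 and 3.96 CPM in OCT4-FKBP and 4.68 and 4.65 CPM in NANOG-FKBP, so SOX2-FKBP alone was high (-1.48 for OCT4-FKBP with adjusted p = 1.45e-05, and -1.43 for NANOG-FKBP with adjusted p = 0.000779). The site in Ascc1 at chr10:60027726-60029779 had 13.2 and 16 CPM, 4.4 and 4.77 CPM and 9.5 and 4.65 CPM in the same order (-1.55 for OCT4-FKBP). On chromosome 6, the intronic site in BC035044 at chr6:128853785-128854803, with a CTCF match, had 5.94 and 6.19 CPM, 15.1 and 16.7 CPM and 6.72 and 4.65 CPM, the OCT4-FKBP libraries standing above those of both other lines (-1.49 for NANOG-FKBP against OCT4-FKBP). The other named differences were in an intron of Loxhd1, higher in NANOG-FKBP than in SOX2-FKBP by 1.32, and near Lyzl1, with a difference of -0.98. In the comparison of NANOG-FKBP with OCT4-FKBP they were at chr8:79561755-79563295, with a difference of 1.12, at chr17:14166817-14167789 with -1.42 and at chr14:76657488-76658814 with -1.38. Of these 5 only the one on chromosome 17 was called whichever library was left out. Calls were lost without NANOG-FKBP replicate 2 at the sites of Loxhd1 (adjusted p = 0.0685), Lyzl1 (0.163), chromosome 8 (0.302) and Ascc1 in NANOG-FKBP against SOX2-FKBP (0.468), and without OCT4-FKBP replicate 2 at the site on chromosome 14 (0.102), all from edgeR.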

How the data were processed

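Of the 45 samples, 31 have a column in the deposited count table, and 14 were not analysed here. Alignment to mm10 by the authors used BWA 0.7.17-r1188, with SAMtools 1.10 to filter for mapping quality and Picard 2.12.0 to drop duplicates. MACS2 then gave peaks of the merged libraries, and fragments were counted in each. The deposited counts are raw. The deposited peak list, made from pooled libraries, holds a fold enrichment (a ratio), a −log10 q-value and a score, of which only the fold and the summit were used. No shift of fragment ends is given in the sources used here. The members, lists and named regions were chosen with earlier results of these data known.

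CPM and ratios were computed from the counts in Python 3.11.15. The tests ran in R 4.3.3, with edgeR 4.0.16 as the main tool (TMM, quasi-likelihood test, Benjamini-Hochberg adjustment over all peaks tested, threshold 0.05), and with DESeq2 1.42.0, the tool of the study, as the alternative and for the test against a log2 fold change of 1. One fit held the 12 SOX2-FKBP libraries and the 160432 peaks that exceeded 10 counts in over 2 of them. The other held 27 libraries of the 3 lines and the 166430 peaks that exceeded 10 counts in over 6. The fits were tested on simulated data. Standard errors are approximate, from the fold change and its F statistic. Sequence and annotation are mm10, with GENCODE vM21 starts and RefSeq tRNA genes. Members without a CTCF core match in the window, tRNA and RefSeq starts and members with both SOX and OCT4 letters were looked at after values were seen.

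Named regions are the 10 members with the highest NT level, the member nearest to each of 36 listed genes within 100 kb, the 3 regions on each side of the limits, the 3 largest called differences in each direction per test with at least 50 normalized counts in the higher group, and the 5 members nearest to fallen peaks, 1 of which is not reported here. No called early difference met that rule. Libraries of the same replicate number deviated together in SOX2-FKBP, with correlations of 0.115 to 0.461 over 15 pairs of groups. Between NT and treated groups of SOX2-FKBP they were 0.154 to 0.193. In OCT4-FKBP they were 0.340 to 0.608 over 6 pairs. The numbers may thus pair samples in these 2 lines, but the main fits are unpaired and only the replicate block uses a pairing. In NANOG-FKBP same-numbered NT and treated libraries did not deviate together (-0.0537 to 0.0786), but same-numbered treated libraries did (0.478 to 0.576). The alternatives were other normalizations, tests, filters, sample sets, limits, windows, the replicate block and leaving out replicates; chromosome offsets and fits without the treated NANOG-FKBP replicate 2 were added after seeing the data.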

Additional observations from a re-analysis of the deposited data

How the results depend on the processing

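The count of members called at 0.5 hpd was 0 in edgeR and 1 when only the compared groups were fitted. At 1 hpd it was 0, 1 with total counts, 5 with the replicate block and 0 to 2 when a replicate was left out, and between 1 h and 0.5 h it was 0 under each alternative run. In the 9 depletion contrasts it was 0, 1 with DESeq2 and 9 with the replicate block. Members passing the test against a log2 fold change of 1 numbered 752 to 933 at 0.5 hpd, 708 to 885 at 1 hpd and 680 to 945 between them when a replicate was left out. Against 0.5, with all replicates, they numbered 80, 60 and 80, of 185, 132 and 185 members that were given an adjusted p.

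Calls between untreated lines rose with the replicate block, a pairing that the labels do not give between lines: to 347 for OCT4-FKBP against SOX2-FKBP, 100 for NANOG-FKBP against SOX2-FKBP and 106 for NANOG-FKBP against OCT4-FKBP, where it called 37.2%, 15.7% and 15.5% of all peaks tested. Leaving out a replicate gave 65 to 131, 1 to 25 and 18 to 27. NANOG-FKBP against SOX2-FKBP gave 15 with DESeq2, which called 3.81% of all peaks tested, and 13 with total counts. NANOG-FKBP against OCT4-FKBP gave 25 with chromosome offsets. A lone library left in a group was assumed to vary like the others. For the named differences 183 alternatives kept the call, 15 lost it and 0 reversed it.

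The members depend on the limits. There were 19 with limits of 0.9 and its inverse, 29 when every treated library had to be inside, 537 with a floor of 8 CPM and 608 to 1024 without a replicate. The share with a CTCF core match was 36.5% in 100 bp, 59.1% in the whole peak and 14.8% with no mismatch. It was 52.6%, 34.5% and 34.5% with the first 3 of these member sets, and 38.7 to 44.1% without a replicate. The cause of these differences was not tested. With about 2 libraries a group, small changes in a single site were not detectable. Fitted log2 fold changes of members down to -0.73 at 0.5 hpd and -0.83 at 1 hpd were not called by edgeR.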
